A study of Mus musculus with 12 samples.

Results

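Mitochondrial ribosomal proteins are the nuclear-encoded proteins of the mitochondrial ribosome, and 72 genes for them were followed through 12 RNA-seq libraries of primary mouse chondrocytes. They were chosen by name and abundance: protein-coding genes whose symbol is Mrpl or Mrps followed by a digit, without the suffix of a pseudogene, and with at least 10 counts in each of 4 or more libraries. This gave 72 of the 57010 gene IDs in the count files, from 78 protein-coding genes of those names before the count limit. The 72 comprise 45 Mrpl symbols and 27 Mrps symbols.

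Primary chondrocytes, the matrix-producing cells of cartilage, were labelled Control, WT or SIRT5F101L mutant, with 4 libraries in each group, and all 12 libraries carry the genotype label wild type. Per the labels, cells were transfected with a wildtype plasmid or with a plasmid for SIRT5 carrying the F101L change. SIRT5 is a sirtuin of mitochondria that takes malonyl, succinyl and glutaryl groups off lysine side chains. What the Control cells received, the promoter and backbone of the plasmids, the age of the animals and the time after transfection are not given in the sources used here. Nothing in the labels says that the 4 libraries of a group came from separate cultures or animals, so p-values measure only the spread between these libraries.

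Mitochondria translate a small set of respiratory-chain proteins on their own ribosome, whose RNAs come from mitochondrial DNA and whose proteins are made in the cytosol and imported. The large subunit holds the centre that joins amino acids and the exit tunnel, and the small subunit reads the messenger RNA. Many of the proteins descend from bacterial ribosomal proteins, while others were acquired in the mitochondrial lineage. Chondrocytes rely heavily on glycolysis, and their mitochondrial ribosome makes the mitochondrially encoded core of the respiratory chain.

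By structural role, 28 members are large-subunit proteins with a bacterial homolog and 19 are large-subunit proteins specific to mitochondria. Another 15 are small-subunit proteins with a bacterial homolog and 9 are small-subunit proteins specific to mitochondria. Symbols do not always name the subunit: Mrps30 and Mrps18a encode large-subunit proteins. Mrps36, despite its symbol, encodes a subunit of the 2-oxoglutarate dehydrogenase complex and is kept apart from the 4 classes.

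The libraries held 15095357 to 24242139 counts, and the 72 genes together took 0.203% to 0.274% of them. In Control libraries the 13 chondrocyte markers examined, among them Col2a1 and Acan, were all present, with a summed level of 9337 to 11705 CPM (counts scaled to a common library total, with library sizes scaled by edgeR's TMM method). Their summed level was 2854 to 2969 in WT and 2323 to 2569 in SIRT5F101L. The macrophage list summed to 173 to 206, 135 to 153 and 143 to 183 CPM in Control, WT and SIRT5F101L, with none of its 8 markers at 0. The fibroblast and synovial list summed to 18295 to 21753, 7486 to 8568 and 7709 to 8637 CPM. The endothelial list stayed between 3.17 and 4.82 CPM in all libraries, the osteoblast list summed to 19.2 to 26.6, 4.22 to 5.64 and 3.57 to 5.58 CPM with Phex at 0 throughout, and the adipocyte list to 23.6 to 26.5, 29.6 to 34.9 and 24.7 to 37.9 CPM. Sums follow the most abundant markers, and single ones went the other way: 2 of 13 chondrocyte, 1 of 8 macrophage and 2 of 6 fibroblast and synovial markers were called higher in WT, and 1, 1 and 2 in SIRT5F101L. The part of these shifts in the values of the ribosomal protein genes was not tested. In such bulk libraries, fewer cells of a type and less RNA per cell cannot be told apart.

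Sirt5 itself was counted 11, 15, 9 and 16 times in the Control libraries, 9, 9, 8 and 1 times in WT and 9, 19, 15 and 10 times in SIRT5F101L. Mean Sirt5 levels were 0.688, 0.384 and 0.721 CPM in Control, WT and SIRT5F101L, and both plasmid groups overlapped Control. No difference from Control was detected in these CPM, with exact 2-sided permutation p = 0.0571 for WT and 0.886 for SIRT5F101L. The test set 4 libraries against 4, and its smallest possible p is 0.0286. Whether the annotation used for counting covers the plasmid transcript is not given, and groups are called by their labels throughout. The 37 genes of the mitochondrial genome, including both mitochondrial ribosomal RNAs, are listed at 0 in all 12 libraries, so the RNA part of the mitochondrial ribosome was not measurable here.

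Of the 78 protein-coding genes, the 6 outside the rule were Mrpl17, Mrpl33, Mrpl40, Mrpl53, Mrps6 and Mrps34, and all were listed at 0 in every library. A value of 0 in all libraries for genes of this kind says only that no read was assigned to them. In the GENCODE M21 annotation, 88.0% of the exon bases of Mrpl53, 77.8% of those of Mrps34, 19.9% of those of Mrps6 and 3.56% of those of Mrpl33 are shared with another gene, while Mrpl17 and Mrpl40 share none. Just inside the rule was Mrps18a, with 4 to 16 counts and 10 or more in 5 libraries. The next lowest member was Mrps18c, with 82 to 197 counts. All 72 members also passed the expression filter of the test, Mrps18a included.

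Levels between genes were compared per kilobase, taking the median length of a gene's protein-coding transcripts. The members were short: 405 to 6073 bases with a median of 1179.5, and 54 of 72 lay under the median of 2063 bases over all genes tested. In Control their mean level ranged from 0.645 to 190 CPM per kb, with a median of 24.8 and the middle of the distribution between 14.3 and 47.8. Although most of the products are built into the ribosome in single copies, the levels of their transcripts per kb spanned a 3.34-fold range between the quartiles.

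Mrps21, for the small-subunit protein bS21m, stood highest at 190 ± 11.2 CPM per kb (SD, n = 4). Mrpl52 and Mrpl54, for large-subunit proteins specific to mitochondria, followed at 164 ± 10.8 and 139 ± 5.56, and Mrpl20, for the homolog of bacterial L20, at 135 ± 8.71. Mrpl54 and Mrpl20 differed by less than their spread. At the low end stood Mrps18a at 0.645 ± 0.370, Mrpl47 at 4.10 ± 0.456, Mrps25 at 4.30 ± 0.291 and Mrpl19 at 4.53 ± 0.303 CPM per kb, and the last 3 of these did not differ beyond their spread. The 4 highest genes were also the 4 highest with the longest transcript as the length. Mrps17 was the gene most sensitive to that choice among those named here, ranking 13 by median length and 55 by the longest transcript.

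The first question was how levels differed between chondrocytes given the WT plasmid and Control. In WT, 23 of the 72 genes passed the test (edgeR quasi-likelihood, Benjamini-Hochberg adjusted p under 0.05 over all 14253 genes tested), 9 higher and 14 lower. This share is below the background, since 56.8% of all genes tested passed, 28.7% higher and 28.1% lower. The median log2 fold change over the 72 genes was -0.09, beside -0.01 over all genes tested, and 48 of the 72 values were negative. With each library's length slope as a model term (described below), the WT calls were 21 higher and 5 lower, and the median 0.05. Of all genes tested, 29% were then called higher and 27.7% lower. No member reached a 2-fold change, whereas 17.2% of all genes did. The count rests in part on single libraries: without WT replicate 1 the genes that fell numbered 7 and those that rose 9, and without Control replicate 2 they numbered 9 and 10. A library outside the comparison moved the count too: without SIRT5F101L replicate 1, 31 genes passed in WT, 20 lower and 11 higher. The shares of all genes called in WT were not counted in these fits, so the changes cannot be read as particular to the members.

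In SIRT5F101L against Control, 46 of the 72 genes passed, 9 higher and 37 lower. Over all genes tested, 60.7% passed, 30% higher and 30.7% lower, so the total was close to the background while the genes that fell made up more of the members than of all genes. The median log2 fold change was -0.28, beside -0.02 over all genes tested, and 54 of 72 values were negative. This balance turned with the same length-slope term, where 13 members were called higher and 3 lower, beside 24.6% and 23% of all genes tested. The median was then 0.02, and 37 of the 46 calls were lost. Again no member reached 2-fold, against 18% of all genes tested. Both comparisons use the same 4 Control libraries. In their values set side by side, 7 genes were called higher and 14 called lower in each, 2 were called in WT only, 25 in SIRT5F101L only and 24 in neither. The same categories were not counted over all genes tested, so this sharing cannot be read as particular to the members.

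**Figure D1:**
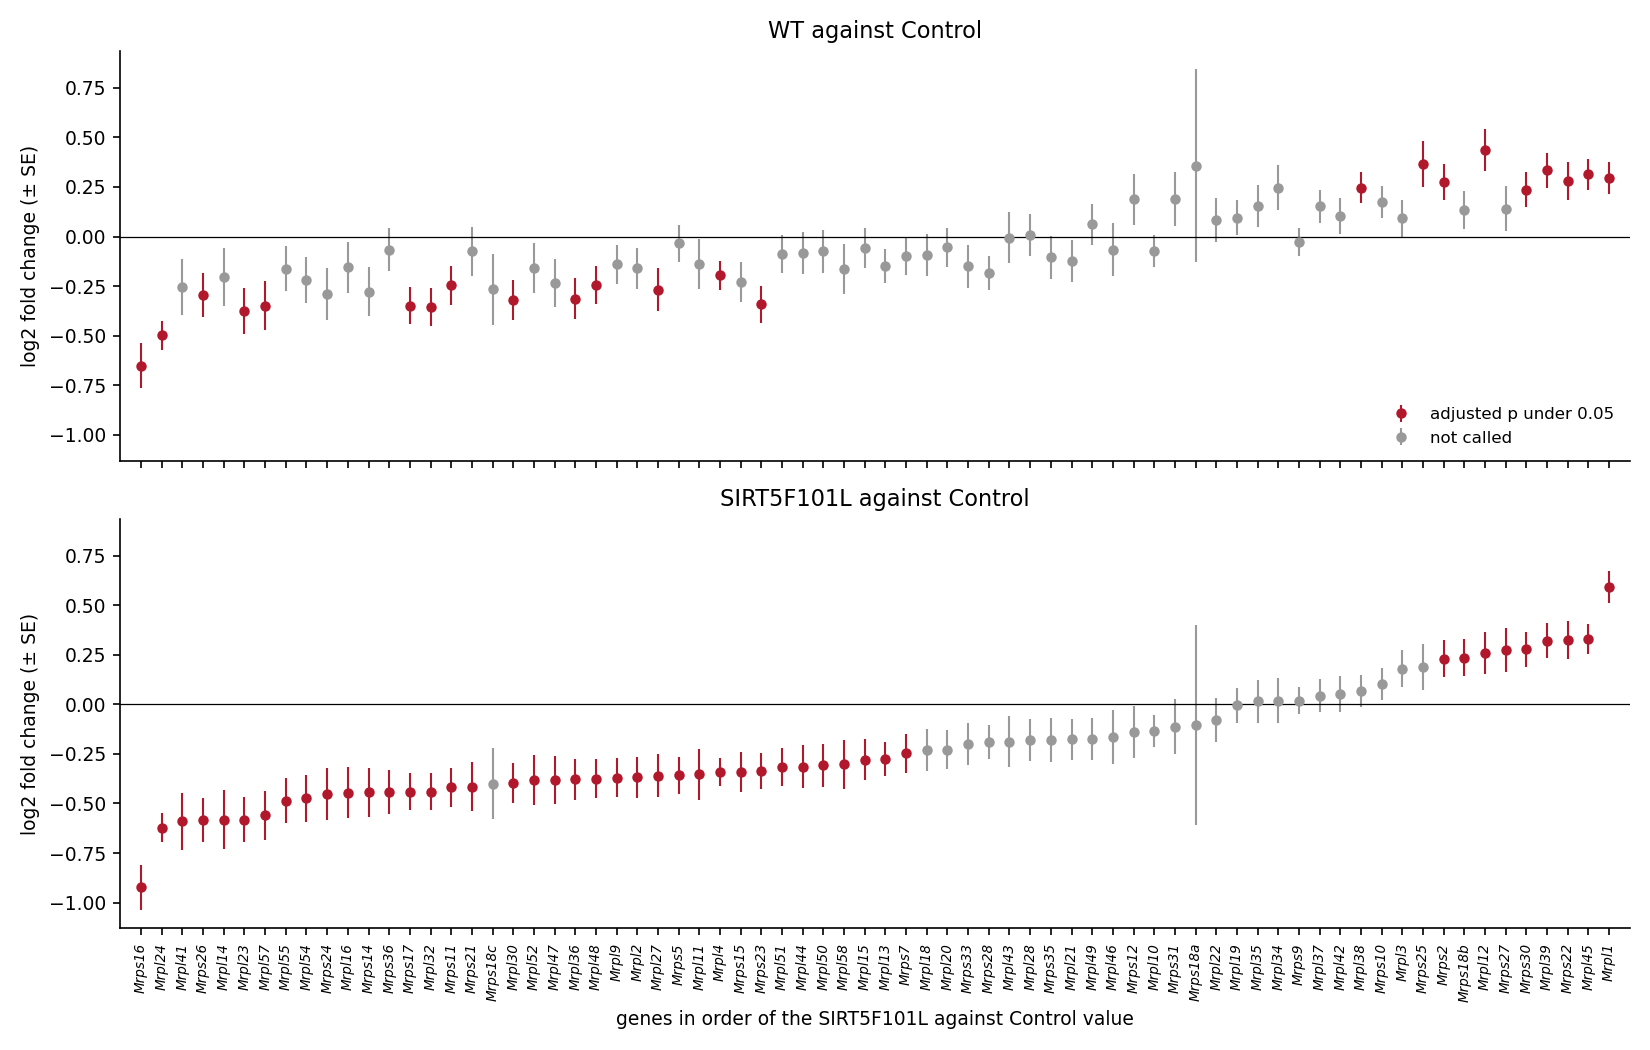
The vertical axes give the log2 fold change against Control with its standard error, for WT in the upper panel and SIRT5F101L in the lower, with the 72 genes along the horizontal axis in the order of the lower panel. Red marks an adjusted p under 0.05: 23 genes in the upper panel and 46 in the lower, with Mrps16 lowest in both and Mrpl1 highest in the lower.

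Among the small-subunit genes, Mrps16 moved furthest. It encodes bS16m, a homolog of bacterial S16, and its human counterpart is a disease gene for combined respiratory-chain deficiency. Mrps16 measured 48.5, 46.2, 50.3 and 45.5 CPM in the Control libraries, 25.1, 33.4, 29.6 and 33.3 in WT and 31.8, 21.9, 25.9 and 20.6 in SIRT5F101L. Every Control library lay above all 8 plasmid libraries, and the plasmid groups overlapped. It fell by 0.65 ± 0.11 on the log2 scale (SE) in WT, with an edgeR adjusted p of 5.41e-05. In SIRT5F101L it fell by 0.92 ± 0.11, with an edgeR adjusted p of 7.48e-07. A near-identical stretch elsewhere in the transcriptome covers 15.6% of its transcript, so a part of its reads may be shared.

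Mrps26 encodes a small-subunit protein specific to mitochondria. It measured 46.1, 38.9, 47.8 and 42.2 CPM in Control, 34.3, 40.4, 32.9 and 35.1 in WT and 38.2, 26.5, 26.6 and 25.4 in SIRT5F101L. SIRT5F101L replicate 1 sat close to the lowest Control library, and the other 3 lay together well beneath it. The log2 fold change was -0.58 ± 0.11 in SIRT5F101L (edgeR adjusted p = 0.000152) and -0.29 ± 0.11 in WT (adjusted p = 0.0296), where leaving out either of 2 Control or any of 3 WT libraries ended the call.

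Mrps17, the homolog of bacterial S17, fell by 0.35 ± 0.09 in WT and by 0.44 ± 0.09 in SIRT5F101L on the log2 scale, with edgeR adjusted p of 0.00343 and 0.000424. All Control libraries, at 46.9 to 50.9 CPM, lay above all plasmid libraries, at 30.7 to 42.6 CPM. Mrps21, the most abundant member per kb, measured 75.1, 72.1, 77.5 and 82.8 CPM in Control, 64.9, 79.1, 69.8 and 78.5 in WT and 81.3, 47.9, 52.2 and 49.1 in SIRT5F101L. Its SIRT5F101L replicate 1 lay within the Control range and the other 3 below every other library. It was called lower in SIRT5F101L (log2 fold change -0.42 ± 0.12, edgeR adjusted p = 0.00692) and not in WT (-0.07 ± 0.12, adjusted p = 0.635). With each library's length slope as a model term, a setting described below, the SIRT5F101L calls of Mrps17 and Mrps21 and the WT call of Mrps26 ended, with edgeR adjusted p of 0.103, 0.816 and 0.264. Near-identical sequence covers 54.1% of the transcript of Mrps21.

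Of the large-subunit genes, Mrpl24 fell most and most evenly. It encodes uL24m, a homolog of bacterial L24, which binds ribosomal RNA near the exit tunnel. Its levels were 42.8, 49.9, 43.1 and 48.7 CPM in Control, 31.8, 33.6, 31.8 and 33.5 in WT and 32.5, 29.6, 28.5 and 29.4 in SIRT5F101L. The 8 plasmid libraries spanned a narrow band that lay wholly below Control, and SIRT5F101L replicate 1 was in it. The log2 fold change was -0.50 ± 0.07 in WT (edgeR adjusted p = 8.59e-06) and -0.62 ± 0.07 in SIRT5F101L (adjusted p = 4.63e-07). In the M21 annotation 26.3% of its exon bases overlap Rrnad1 on the other strand, and the strand setting of the counting is not given.

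Mrpl41, for a large-subunit protein specific to mitochondria, was less even. It measured 37.6, 34.3, 35.8 and 32.6 CPM in Control, 25.1, 29.7, 28.0 and 34.8 in WT and 33.4, 20.7, 21.5 and 17.5 in SIRT5F101L. SIRT5F101L replicate 1 and WT replicate 4 lay within the Control range, while SIRT5F101L replicates 2 to 4 lay below every other library. Its log2 fold change was -0.59 ± 0.14 in SIRT5F101L (edgeR adjusted p = 0.00141) and -0.25 ± 0.14 in WT (adjusted p = 0.135). With the length-slope term the SIRT5F101L value of Mrpl41 was -0.08 and no longer passed (edgeR adjusted p = 0.573).

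A further 4 large-subunit genes complete the lowest values in one or both comparisons. Mrpl14 encodes uL14m at the face between the subunits, and its log2 fold change was -0.58 ± 0.15 in SIRT5F101L (edgeR adjusted p = 0.00219) and -0.20 ± 0.15 in WT (adjusted p = 0.248), with overlapping groups. Mrpl23 encodes uL23m at the tunnel exit and stood at -0.38 ± 0.11 in WT and -0.58 ± 0.11 in SIRT5F101L, with edgeR adjusted p of 0.00842 and 0.000206 and every plasmid library below Control. Mrpl57 stood at -0.35 ± 0.12 and -0.56 ± 0.12, with edgeR adjusted p of 0.0202 and 0.000581. Mrpl32 encodes bL32m, which the m-AAA protease trims before assembly, and stood at -0.36 ± 0.10 and -0.44 ± 0.10, with edgeR adjusted p of 0.00350 and 0.000525. The call of Mrpl57 in WT was lost when Control replicate 2, WT replicate 1 or WT replicate 3 was left out. With the length-slope term the SIRT5F101L calls of all 4 ended, at edgeR adjusted p of 0.546 for Mrpl14, 0.0906 for Mrpl23, 0.302 for Mrpl57 and 0.155 for Mrpl32, and so did the WT calls of Mrpl23 and Mrpl57. Near-identical sequence covers 68.9% of the transcript of Mrpl23 and 47.9% of that of Mrpl41.

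A minority of the members rose. Mrpl1 encodes uL1m, the protein of the stalk through which spent transfer RNA leaves the ribosome. It measured 17.1, 20.9, 20.1 and 20.2 CPM in Control, 24.3, 23.7, 22.9 and 25.2 in WT and 29.6, 31.6, 29.0 and 27.9 in SIRT5F101L. The 3 groups did not overlap, with Control lowest and SIRT5F101L highest. The log2 fold change was 0.30 ± 0.08 in WT (edgeR adjusted p = 0.00431) and 0.59 ± 0.08 in SIRT5F101L (adjusted p = 2.91e-06). Mrpl1 shares no exon base and no near-identical stretch with another gene in the M21 annotation.

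Mrpl45 encodes mL45, which helps hold the ribosome at the inner membrane beside the tunnel exit. Its levels were 51.8, 50.5, 51.0 and 48.9 CPM in Control, 54.8, 61.3, 67.8 and 67.5 in WT and 69.5, 66.8, 58.4 and 59.6 in SIRT5F101L. All 8 plasmid libraries lay above Control, and the plasmid groups overlapped. The log2 fold change was 0.31 ± 0.08 in WT and 0.33 ± 0.08 in SIRT5F101L, with edgeR adjusted p of 0.00166 and 0.000976. Mrpl39, for another large-subunit protein specific to mitochondria, gave 0.33 ± 0.09 and 0.32 ± 0.09, with edgeR adjusted p of 0.00275 and 0.00326, and no plasmid library overlapped Control.

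Mrps22, for a small-subunit protein specific to mitochondria, measured 20.9, 24.8, 21.04 and 18.8 CPM in Control, 24.4, 24.95, 26.3 and 28.3 in WT and 28.1, 28.3, 27.8 and 23.1 in SIRT5F101L. Both plasmid groups overlapped Control through its replicate 2. The log2 fold changes were 0.28 ± 0.10 and 0.33 ± 0.10 (edgeR adjusted p = 0.0165 and 0.00569), and the WT call was lost without Control replicate 4 or WT replicate 4. Mrps30, of the large subunit, stood at 0.24 ± 0.09 and 0.28 ± 0.09 (edgeR adjusted p = 0.0275 and 0.00972). Mrps27, a pentatricopeptide-repeat protein of the small subunit, stood at 0.14 ± 0.11 and 0.28 ± 0.11 (edgeR adjusted p = 0.294 and 0.0380). The calls of Mrps27 in SIRT5F101L and of Mrps30 in WT were each lost when any of 5 single libraries was left out, and Mrps30 in both comparisons lost its call after the length-trend correction described below.

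Mrpl12 encodes bL12m, the stalk protein that recruits translation factors and also binds the mitochondrial RNA polymerase. It measured 55.7, 53.9, 55.4 and 50.6 CPM in Control, 66.5, 74.3, 67.0 and 83.9 in WT and 84.3, 57.2, 60.5 and 55.8 in SIRT5F101L. All WT libraries were high, whereas in SIRT5F101L only replicate 1 was, and the other 3 lay just above Control. The log2 fold change was 0.44 ± 0.11 in WT (edgeR adjusted p = 0.00175) and 0.26 ± 0.11 in SIRT5F101L (adjusted p = 0.0437). Without SIRT5F101L replicate 1 the latter was 0.11 and no longer passed, and it was also lost without any single Control library and without WT replicate 2 or 3. Mrps25 was called higher in WT alone, at 0.37 ± 0.12 (edgeR adjusted p = 0.0108) against 0.19 ± 0.12 (adjusted p = 0.173) in SIRT5F101L, and 69.8% of its exon bases overlap another gene. Its WT call ended after the length-trend correction (edgeR adjusted p = 0.126).

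**Figure D2:**
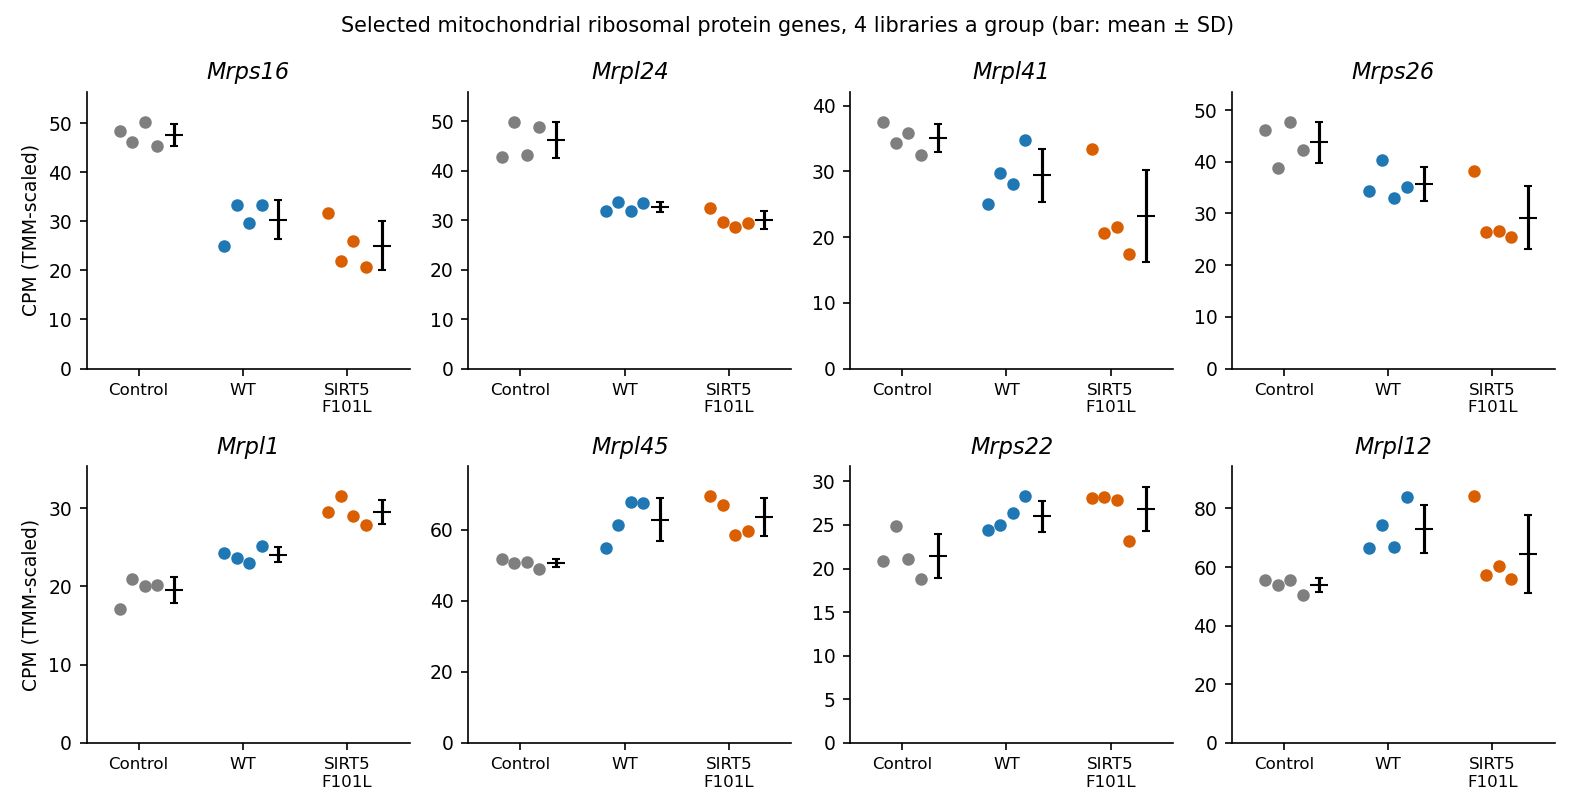
Each panel plots the TMM-scaled CPM of 1 gene (vertical axis, from 0) in the 4 libraries of each group in order of replicate, with the mean and SD beside them. Mrpl24 and Mrps16 lie lower in all 8 plasmid libraries and Mrpl1 and Mrpl45 higher, while in Mrpl41, Mrps26 and Mrpl12 the first SIRT5F101L library stands above the other 3.

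The 3 Mrps18 paralogs descend from a single bacterial S18 gene, and their products occupy different sites of the ribosome. Mrps18c, the direct homolog in the small subunit, stood at 13.0 ± 1.92 CPM per kb in Control and Mrps18b, also of the small subunit, at 17.8 ± 1.53 (SD, n = 4). Mrps18b was called higher in SIRT5F101L (log2 fold change 0.24 ± 0.09, edgeR adjusted p = 0.0381), a call lost when any of 4 single libraries was left out, and Mrps18c was not called (-0.40 ± 0.18, adjusted p = 0.0596). Near-identical sequence covers 38.6% of the Mrps18b transcript and 32.3% of that of Mrps18c. Mrps18a, of the large subunit, gave 0.214 to 0.874 CPM over the 12 libraries, at most 16 counts, and no difference was detectable at that depth. Mrpl58, a peptidyl-tRNA hydrolase that became part of the large subunit, was called lower in SIRT5F101L at -0.30 ± 0.13 (edgeR adjusted p = 0.0430), and this call too was lost when any of 8 single libraries was left out. Mrps36, outside the ribosome, had a log2 fold change of -0.44 ± 0.11 in SIRT5F101L (edgeR adjusted p = 0.00187) and -0.07 ± 0.11 in WT (adjusted p = 0.634). The SIRT5F101L calls of Mrps18b, Mrpl58, Mrps36 and Mrps27 all ended with the length-slope term, where the edgeR adjusted p of Mrps36 was 0.505.

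By class, 43 of the 72 genes have a bacterial homolog. Of these 43 genes, 10 fell and 3 rose in WT, and 25 fell and 3 rose in SIRT5F101L, with median log2 fold changes of -0.14 and -0.34. The 23.3% that fell in WT lay below the 28.1% of all genes tested, and the 58.1% in SIRT5F101L above the 30.7%. Of the 28 genes specific to mitochondria, 4 fell and 6 rose in WT, and 11 fell and 6 rose in SIRT5F101L, with medians of -0.04 and -0.18. The shares of these that fell were 14.3% and 39.3%. Single libraries moved the class values. Without WT replicate 1, 6 genes with a bacterial homolog and 1 specific to mitochondria fell in WT, with medians of -0.09 and 0.04. Without SIRT5F101L replicate 1, the SIRT5F101L medians were -0.44 for genes with a bacterial homolog and -0.30 for those specific to mitochondria. With the length-slope term described below, higher calls outnumbered lower ones in both classes: 4 genes with a bacterial homolog were lower and 11 higher in WT, and 2 lower and 6 higher in SIRT5F101L, with medians of 0.014 and -0.0058. Of those specific to mitochondria, 1 was then lower in each comparison, and 10 and 7 were higher. Of all genes tested, 29% were higher and 27.7% lower in WT with that term, and 24.6% and 23% in SIRT5F101L. By subunit and without that term, the 47 large-subunit genes had medians of -0.09 and -0.28 and the 24 small-subunit genes of -0.10 and -0.22. The 9 small-subunit genes specific to mitochondria had the highest medians of the 4 classes, 0.13 and -0.11. With the length-slope term, the large-subunit medians were 0.047 and 0.0091 and the small-subunit medians 0.018 and 0.029. No test compared the classes.

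The direct comparison of SIRT5F101L with WT asks what the mutant does beside the wild-type plasmid. None of the 72 genes passed (edgeR; DESeq2 also called 0), where 0.0421% of all genes tested did. At an unadjusted p under 0.05 there were 20 members, 27.8%, beside 11.9% of all genes tested. The log2 fold change was negative for 63 of the 72, with a median of -0.15 beside -0.00 over all genes tested, and none reached 2-fold, against 0.821% of all genes. With the length-slope term described below, 43 of the 72 were negative and the median was -0.01. No member had all SIRT5F101L libraries below all WT libraries, as 2.03% of all genes tested did. Only Mrpl1 had all of them above, as 1.99% did, at a log2 fold change of 0.30 ± 0.08 with an edgeR adjusted p of 0.245.

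The lowest values in this comparison were those of Mrps18a at -0.46 ± 0.49, Mrpl14 at -0.38 ± 0.15, Mrps36 at -0.38 ± 0.11 and Mrps21 at -0.34 ± 0.12. Their edgeR adjusted p were 0.713, 0.371, 0.313 and 0.363. The highest after Mrpl1 were Mrps27 at 0.13 ± 0.11, Mrps18b at 0.10 ± 0.09 and Mrpl3, for the homolog of bacterial L3, at 0.09 ± 0.09. These 3 lay close to their standard errors.

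The counts against WT turned on a single library. SIRT5F101L replicate 1 was the highest of its group for 62 of the 72 genes. The summed level of the members was 2740 CPM there and 2159, 2133 and 1977 in replicates 2, 3 and 4, against 2523 to 2673 in Control and 2274 to 2668 in WT. As group means these sums were 2621 ± 67.2, 2487 ± 169 and 2252 ± 335 CPM in Control, WT and SIRT5F101L (SD, n = 4), so the SIRT5F101L spread covers the difference from WT. Without that library, 37 genes passed against WT, 36 of them lower, where 8.58% of all genes were called lower, and the median was -0.25. Against Control, 56 genes then passed, 7 higher and 49 lower, where 32.1% of all genes were called lower, and the median was -0.37. Nothing in the labels sets replicate 1 apart, so the values with all 4 libraries are the ones reported and these stand beside them.

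Without replicate 1, the calls against WT included Mrpl14 at -0.54, Mrps21 at -0.55, Mrps36 at -0.50 and Mrpl1 at 0.29. By class, 23 of the 43 genes with a bacterial homolog and 12 of the 28 specific to mitochondria were then called lower. WT was uneven too: replicate 1 was the lowest of its group for 51 of the 72 genes. SIRT5F101L replicate 4 was the lowest of the 8 plasmid libraries for 44.

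**Figure D3:**
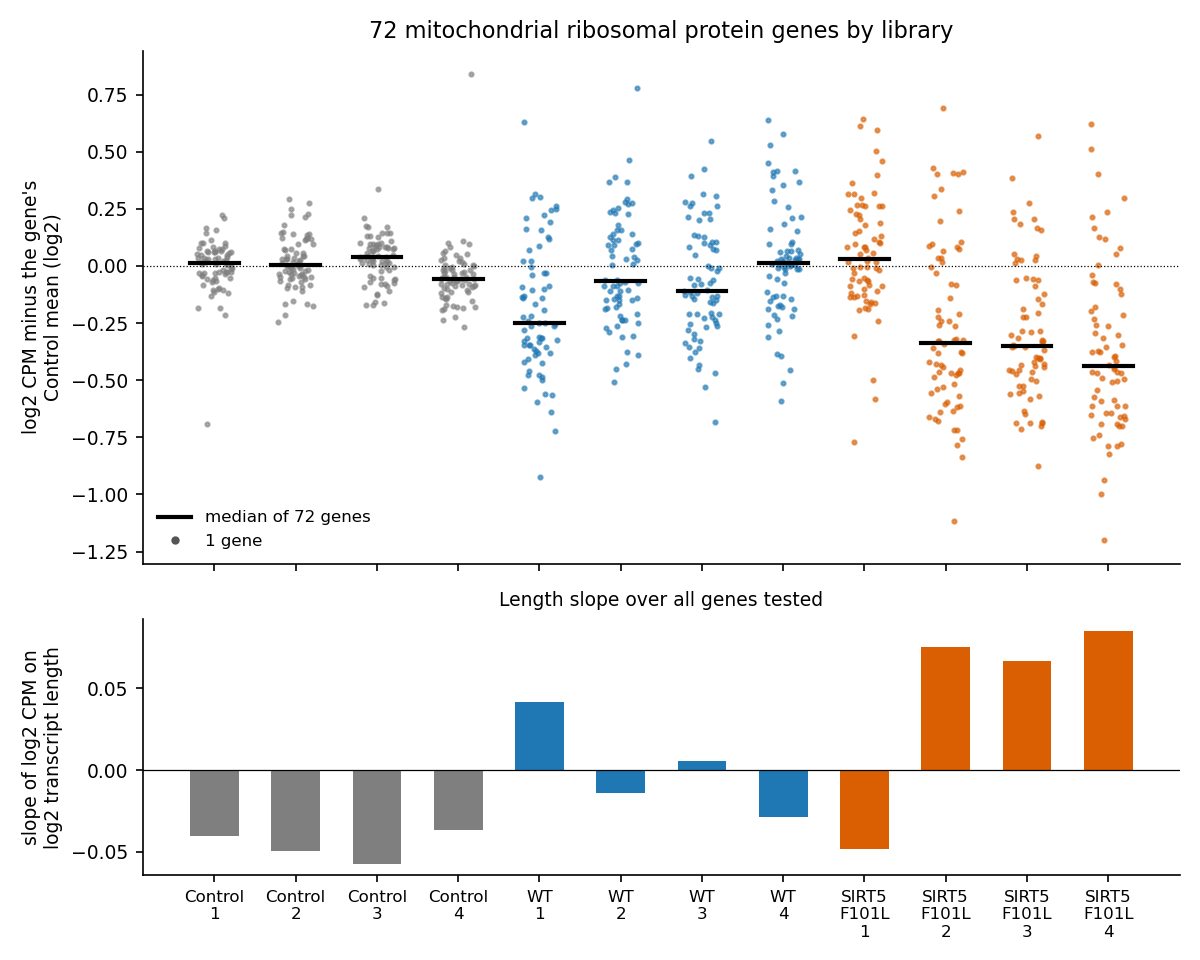
In the upper panel each point is 1 of the 72 genes and the vertical axis is its log2 CPM minus its Control mean, with the median as a bar, by library. The medians of SIRT5F101L replicates 2 to 4 run from -0.44 to -0.34, that of replicate 1 is 0.03 and those of WT run from -0.25 to 0.01. The lower panel gives for the same libraries the length slope (log2 CPM against log2 transcript length) over all genes tested.

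Transcript length moved with these differences. Over all genes tested, the slope of log2 CPM on log2 length was -0.057 to -0.036 in Control libraries. In WT replicates 1 to 4 it was 0.042, -0.014, 0.005 and -0.028. In SIRT5F101L it was -0.048 in replicate 1 and 0.075, 0.066 and 0.085 in replicates 2, 3 and 4. The 3 SIRT5F101L libraries and the 1 WT library in which the members were lowest were thus the 4 with the steepest positive slopes, in which short transcripts in general were low. Since 54 of the 72 members are shorter than the median gene, the members were set beside other genes of their length.

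For members under 1000 bases (31 genes), the median log2 fold changes were -0.16 in WT and -0.36 in SIRT5F101L against Control, beside -0.12 and -0.18 for all tested genes of that length. For those of 1000 to 2000 bases (23 genes) they were -0.03 and -0.17, beside -0.07 and -0.10. For those of 2000 bases or more (18 genes) they were -0.05 and -0.24, beside 0.06 and 0.09. In SIRT5F101L the members therefore had lower medians than other genes in each length class, whereas in WT the middle class did not. Against WT, the SIRT5F101L medians were -0.16, -0.17 and -0.14 from short to long, beside -0.06, -0.04 and 0.03. Over the 72 genes the correlation of log2 fold change with log2 length was 0.20 in WT and 0.25 in SIRT5F101L against Control (Pearson's r, across genes, which share libraries and are not independent replicates). Without SIRT5F101L replicate 1, the members' medians in SIRT5F101L against Control were -0.48, -0.29 and -0.31 from short to long. With the length-slope term described below they were -0.027, 0.095 and 0.024, and 0.014, 0.145 and 0.087 in WT. All genes of each length class were not summarised in those 2 fits.

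**Figure D4:**
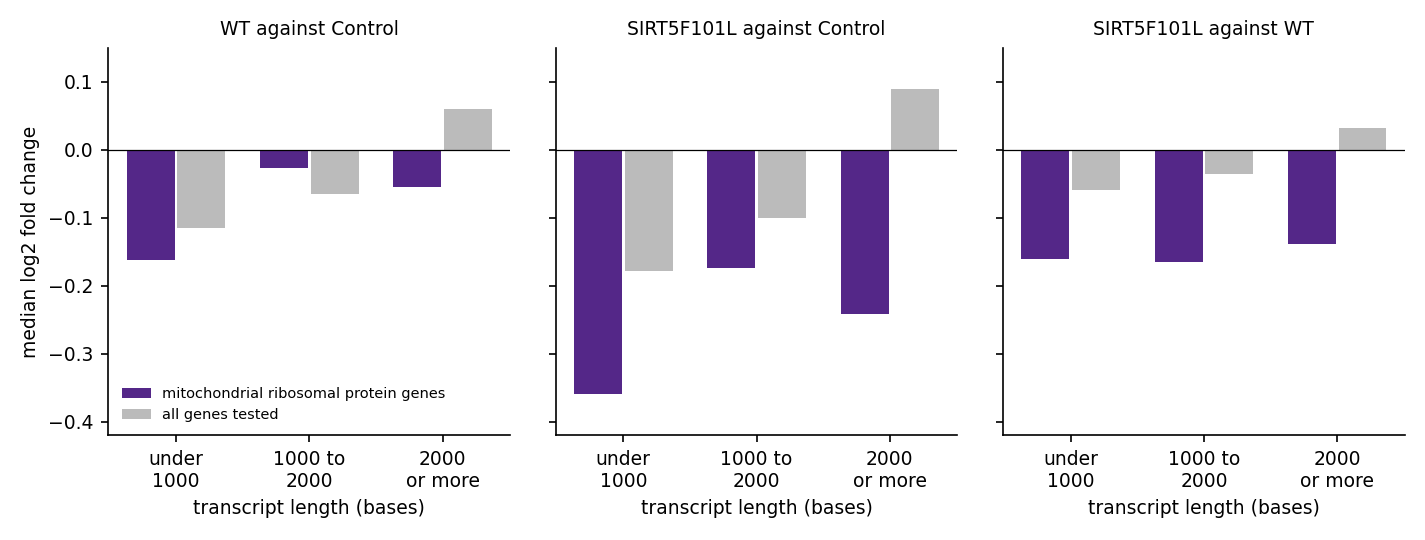
Bars give the median log2 fold change (vertical axis) of the mitochondrial ribosomal protein genes and of all genes tested in 3 classes of transcript length, for each comparison. In SIRT5F101L against Control, with no length term in the model, the members lie at -0.36, -0.17 and -0.24, below all genes in every class.

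Removing each library's smooth trend with length gave 23 calls (9 higher, 14 lower) for WT, 46 (9 higher, 37 lower) for SIRT5F101L against Control and 0 against WT, with medians of -0.08, -0.25 and -0.14. The totals equal those without the correction, but in WT 19 of the 23 genes were the same and 4 were exchanged, and in SIRT5F101L 45 of the 46 were the same. Genes with a bacterial homolog called higher in WT went from 3 to 5 and those specific to mitochondria from 6 to 4, and the WT medians of the latter and of members of 1000 to 2000 bases moved to 0.00038 and 0.0036. With that correction and without SIRT5F101L replicate 1, a setting added after the data were seen, 29 genes were called lower against WT, where 7% of all genes were. Another correction gave another balance. With each library's length slope as a term in the model, 26 genes were called in WT, 21 higher and 5 lower, where 29% of all genes tested were higher and 27.7% lower. In SIRT5F101L against Control 16 were called, 13 higher and 3 lower, where 24.6% of all genes were higher and 23% lower. Of the reported calls, 14 of 23 and 9 of 46 were among them in the same direction. The medians were then 0.05, 0.02 and, against WT, -0.01. All Control slopes are negative, as are 3 of the 8 plasmid slopes, and the other 5 are positive. Length slope and group cannot be fully told apart in these libraries.

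**Figure D5:**
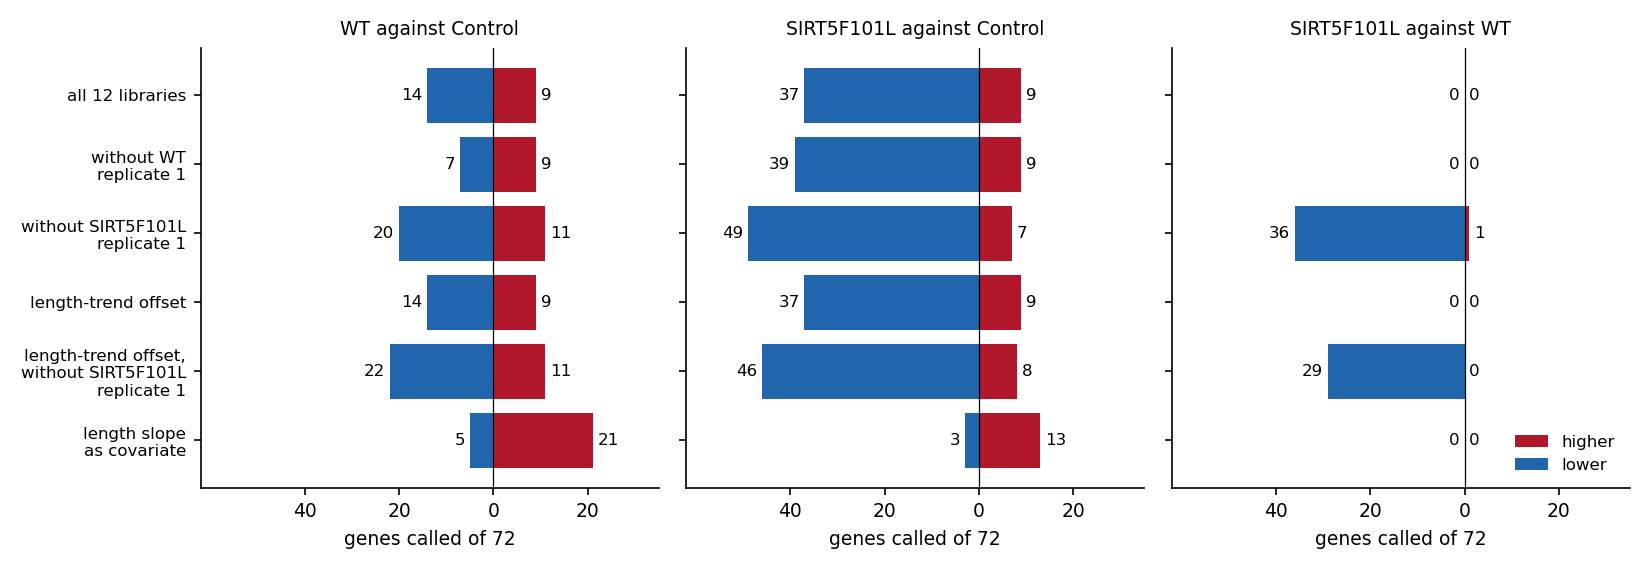
Bars give the number of the 72 genes called higher (right) and lower (left) at an adjusted p under 0.05 in each comparison, for all 12 libraries and for 5 other settings. Leaving out SIRT5F101L replicate 1 raises the genes called lower against WT from 0 to 36, and the length slope as a covariate turns the majority from lower to higher in both comparisons with Control.

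Reads of genes with near-identical copies or overlapping neighbours may be shared, so the genes free of both were counted apart. In the M21 annotation 26 members share no exon base and no near-identical stretch with another gene. Of these 26, 4 fell and 5 rose in WT, and 12 fell and 4 rose in SIRT5F101L, with medians of -0.06 and -0.21 against Control. In WT, 15.4% fell and 19.2% rose, both below the shares of all genes tested (28.1% and 28.7%). In SIRT5F101L, 46.2% fell and 15.4% rose, beside 30.7% and 30% of all genes tested.

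Ribosomal proteins of the mitochondrion with other symbols were described next. The values of these genes and of the pathway lists below come from the fit of all 12 libraries without a length term. The length settings and the fits leaving out a library were not examined for them. Ptcd3, a pentatricopeptide-repeat protein of the small subunit, rose from 37.99 ± 1.41 CPM in Control to 54.9 ± 3.88 in WT and 55.6 ± 2.15 in SIRT5F101L (SD, n = 4). Its log2 fold changes were 0.53 ± 0.07 and 0.55 ± 0.07, with edgeR adjusted p of 1.21e-06 and 7.06e-07. Aurkaip1, of the small subunit, fell by 0.37 ± 0.11 and 0.53 ± 0.11, with edgeR adjusted p of 0.00782 and 0.000383. Chchd1, also of the small subunit, stood at -0.27 ± 0.14 (edgeR adjusted p = 0.111) and -0.55 ± 0.14 (adjusted p = 0.00232). Dap3, a GTP-binding protein of the small subunit, stood at 0.15 and 0.03 and was not called. Gadd45gip1, of the large subunit and at 0.817 to 1.34 CPM on group average, stood at 0.12 and -0.61 and was not called either.

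Of the 24 assembly factors tested out of 26 listed, 2 rose and 5 fell in WT, and 2 rose and 9 fell in SIRT5F101L. The shares called, 29.2% and 45.8%, lay below the 56.8% and 60.7% of all genes tested. Noa1, a GTPase of small-subunit assembly, had log2 fold changes of 0.74 ± 0.08 and 0.68 ± 0.08 (edgeR adjusted p = 1.21e-07 and 3.53e-07). Mtg2, a GTPase of large-subunit maturation, stood at -0.50 ± 0.11 and -0.63 ± 0.11 (edgeR adjusted p = 0.000543 and 4.73e-05), and Ngrn, needed for the large ribosomal RNA, at -0.53 ± 0.11 and -0.64 ± 0.11 (edgeR adjusted p = 0.000466 and 6.03e-05). Ddx28 and Mrm2 of this list were listed at 0.

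Among the 14 mitochondrial translation and messenger RNA factors tested, 5 rose and 4 fell in WT, and 3 rose and 2 fell in SIRT5F101L, or 64.3% and 35.7% called. Lrpprc, which stabilises mitochondrial messenger RNAs, rose by 0.49 ± 0.06 and 0.52 ± 0.06 on the log2 scale, and Gfm1, the elongation factor G of mitochondria, by 0.48 ± 0.07 and 0.36 ± 0.07 (edgeR adjusted p at most 0.000175). Of 19 mitochondrial aminoacyl-tRNA synthetases, 4 rose and 3 fell in WT, and 2 rose and 3 fell in SIRT5F101L, or 36.8% and 26.3% called. Iars2, the isoleucine enzyme, rose by 0.47 ± 0.07 and 0.46 ± 0.07, and Aars2, the alanine enzyme, stood at 0.44 ± 0.11 and 0.26 ± 0.11 with the second value not called. Hars2, the histidine enzyme, fell by 0.25 ± 0.09 and 0.32 ± 0.09.

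Of 14 regulators of mitochondrial transcription and biogenesis, 4 were called higher and 3 lower in each comparison with Control, and the 50% called lay near the share of all genes tested. Ppargc1a, the coactivator PGC-1 alpha, rose from 8.15 ± 1.54 CPM in Control to 19.7 ± 2.31 in WT and 19.3 ± 3.40 in SIRT5F101L (SD, n = 4), and Myc from 30.4 ± 2.27 to 56.6 ± 1.97 and 54.3 ± 2.77. Their log2 fold changes were 1.27 ± 0.14 and 1.24 ± 0.14 for Ppargc1a and 0.90 ± 0.07 and 0.83 ± 0.07 for Myc, with edgeR adjusted p at most 3.14e-07. Between SIRT5F101L and WT, no gene of these 5 lists was called.

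The proteins of the cytosolic ribosome were the nearest comparison. Of 69 such genes tested, 54 fell and none rose in WT, and 66 fell and none rose in SIRT5F101L. The shares that fell, 78.3% and 95.7%, lay above the 28.1% and 30.7% of all genes tested. The medians were -0.39 and -0.61 against Control and -0.23 against WT. The length settings and the fits leaving out a library were not summarised for this set. The mitochondrial set, with medians of -0.09, -0.28 and -0.15 and with members that rose, gave smaller medians and both directions. The difference between the 2 sets was not tested.

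Promoters were examined because genes for mitochondrial ribosomal proteins are known to carry sites for NRF1, ETS-family factors such as GABP, and YY1. The RefSeq promoter table (GRCm38.p6, 250 bases before to 50 after a start) matched 64 of the 72 members with 70 windows. Searched on both strands, GCGCANGCG (NRF1) was present in 15 of the 70 windows, 21.4%, beside 6.25% of all 32851 promoters in the table. CCGGAAG (ETS) was present in 32.9% beside 8.86%, and AAGATGGCG (YY1) in 11.4% beside 1.40%. GGGCGG (Sp1) was present in 51.4% beside 35.7%, and the E-box CACGTG in 10% beside 7.15%. Among windows of genes tested here the shares were 12.2%, 16.4%, 2.65%, 60.5% and 9.63% in the same order. A match is a description of letters and not a bound site.

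The 120 bases before the most upstream start are shown for the lowest pair and the highest pair of genes in SIRT5F101L against Control, to set the opposite directions of expression beside their promoters. Capitals mark matches to the motifs above. They lie at chr14:20393635-20393754 on the minus strand for Mrps16, chr3:87919424-87919543 on the plus strand for Mrpl24, chr5:96209995-96210114 on the plus strand for Mrpl1 and chr11:97315596-97315715 on the plus strand for Mrpl45, all in GRCm38.p6.
Mrps16: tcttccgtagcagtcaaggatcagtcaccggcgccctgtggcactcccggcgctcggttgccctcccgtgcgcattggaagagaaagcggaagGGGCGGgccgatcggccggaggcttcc
Mrpl24: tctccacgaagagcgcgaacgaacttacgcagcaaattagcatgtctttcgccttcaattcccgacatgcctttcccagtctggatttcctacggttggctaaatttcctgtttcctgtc
Mrpl1: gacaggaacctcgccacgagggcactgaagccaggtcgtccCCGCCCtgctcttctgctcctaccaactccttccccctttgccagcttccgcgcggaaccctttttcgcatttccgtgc
Mrpl45: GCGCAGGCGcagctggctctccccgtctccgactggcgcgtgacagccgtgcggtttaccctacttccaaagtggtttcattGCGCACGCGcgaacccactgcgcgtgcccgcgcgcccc
The 120 bases shown of Mrps16 and Mrpl1 each hold 1 Sp1 match, those of Mrpl24 hold none and those of Mrpl45 hold 2 NRF1 matches. Over the whole promoter windows Mrps16 has an ETS match as well, outside the bases shown, and Mrpl1 has Sp1 alone. Over all members with a promoter, the median log2 fold change in SIRT5F101L against Control was -0.31 with and -0.30 without an NRF1 match, and -0.23 with and -0.31 without an ETS match. It was -0.04 for the 8 genes with a YY1 match and -0.31 for the rest, and -0.36 with and -0.18 without an Sp1 match. These medians were not tested.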

How the data were processed

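Poly(A)-selected RNA of 12 libraries was sequenced as paired-end reads on an Illumina platform, per the labels' protocols. The authors deposited, for each library, raw counts (whole numbers) by Ensembl gene ID. The submitters' processing notes name FastQC 0.11.9, HISAT2 2.2.1, HTSeq 2.0.2 and DESeq2 1.38.3 and the builds GRCm39 and mm39. The annotation and the strand setting of the counting are not given in the sources used here. No replicate was pooled, and no label gives a batch. The files name no genes, so 52029 of 57010 IDs were given symbols from a supplied Ensembl table. Gene types, lengths and exon overlaps came from GENCODE M21, an annotation of an earlier build, so its coordinates were not mixed with the counts. Near-identical copies are BLAST+ 2.17.0+ matches of at least 50 bases at 95% identity to transcripts of other genes.

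Counts were fitted with edgeR 4.0.16 in R 4.3.3: TMM scaling, the default filter by group, quasi-likelihood tests on all 12 libraries together (3 group means, leaving 9 residual degrees of freedom), 2-sided and adjusted over 14253 genes. The biological coefficient of variation was 9.19%. Log2 CPM used a prior count of 2. One count was worth 0.0413 to 0.0662 CPM before scaling, and counting error is the only error that depth covers, since the labels mention no molecular identifiers. The median length of a gene's protein-coding transcripts was known for 98.8% of tested genes. The fits were tried on simulated counts with known changes in a small set of genes, a shared spread and no length trend. That check therefore does not cover the length slopes or the large share of genes called here.

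Alternatives were scaling by RLE or by the upper quartile, a filter of only 1 count, a mean of at least 1 CPM, DESeq2 1.42.0, only the 8 libraries compared, the length slope as a covariate, the loess length trend (span 0.5) as an offset, and leaving out each library. The members, lists, tests and alternatives were chosen with earlier results of these data known. Named members are the 6 highest and 6 lowest called values in each comparison with Control, the 4 highest and 4 lowest against WT, the 4 highest and 4 lowest Control levels per kb, the genes at the count limit, and Mrps18a, Mrps18b, Mrps18c, Mrpl12, Mrpl58 and Mrps36. All 5 mitochondrial ribosomal protein genes with other symbols are named, and from each of the other pathway lists the 2 called genes with the lowest adjusted p in each comparison with Control are named. Protein sequences were not used here. Promoters came from the RefSeq table, of whose 70 member windows 66 ended in bases found in a transcript of the gene.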

Additional observations from a re-analysis of the deposited data

Results flagged for a closer look

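Single libraries far from the other 3 of their group were looked for in 96 groups of 4 values, the CPM of each named gene, the members' summed and median levels and the length slope in each group. A value was listed when its gap to the nearest other library, divided by the range of the group, exceeded Dixon's 95% critical value. This listed 11 values, where chance alone gives about 1 in 20 groups, or 4.8.

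In 6 of the 11 the library was SIRT5F101L replicate 1. Its length slope was -0.0480 against 0.0663 to 0.0851 in the other 3. Mrpl12 stood at 84.3 CPM there against 55.8 to 60.5, Mrps21 at 81.3 against 47.9 to 52.2 and Mrps26 at 38.2 against 25.4 to 26.6. Mrpl19 stood at 25.8 CPM against 21.4 to 21.7 and Mrpl47 at 12.5 against 9.92 to 9.99. In each of the 5 genes that library was the highest of its group.

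The other 5 values lay in 5 different libraries. Mrpl32 was at 19.8 CPM in WT replicate 1 against 23.9 to 24.03 in the other WT libraries. Mrpl39 was at 61.6 in WT replicate 4 against 50.7 to 51.4. Mrps17 was at 46.9 in Control replicate 4 against 50.4 to 50.9, a gap that leaves it above all plasmid libraries. In SIRT5F101L, Mrps22 was at 23.1 in replicate 4 against 27.8 to 28.3, and Mrps30 was at 21.3 in replicate 3 against 22.1 to 22.3. The part of any single library's preparation in these values was not tested.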

How the results depend on the processing

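Across RLE scaling, upper-quartile scaling, the filter on a mean of 1 CPM, DESeq2, the fit of only the 8 libraries compared and the length-trend offset, the total of members called in each comparison stayed within 1.5 times the reported one and the median over the members kept its sign (71 members under the filter on a mean of 1 CPM, which drops Mrps18a). Single calls were exchanged within stable totals: upper-quartile scaling lost 4 of the 46 and gained 4, and ended the SIRT5F101L calls of Mrpl12, Mrps18b and Mrps27 and the WT call of Mrps30 (edgeR adjusted p = 0.0880, 0.094, 0.077 and 0.0819), and the fit of 8 libraries ended that of Mrpl58 (0.0698). Within classes the length-trend offset did more: the WT medians of genes specific to mitochondria and of those of 1000 to 2000 bases went from -0.036 and -0.028 to 0.00038 and 0.0036, and genes with a bacterial homolog called higher in WT from 3 to 5. Without a filter beyond 1 count, 5 members were called lower in SIRT5F101L against WT instead of 0, and the calls of Mrps18b, Mrps27 and Mrps30 just named were lost there too. With the length slope as a covariate, the median against Control reversed to 0.047 in WT and to 0.017 in SIRT5F101L, the calls in SIRT5F101L against Control fell to 16, and the median against WT moved to -0.011. In that fit Mrpl52 and Mrps21 turned from lower to 0.044 and 0.026 in SIRT5F101L against Control. The cause was not tested beyond the overlap of slope and group that the libraries show. Leaving out each of the 12 libraries in turn gave 16 to 31 calls in WT, 38 to 56 in SIRT5F101L against Control and 0 to 37 against WT, with medians of -0.13 to -0.05, -0.37 to -0.21 and -0.25 to -0.10. The 31, 56 and 37 arose without SIRT5F101L replicate 1, and 29 against WT with the length-trend offset added to that. No paired analysis was possible because the labels give no replicate numbers, and the numbers used here only name the libraries of a group in accession order. Depth limits Mrps18a, at 4 to 16 counts, and the genes listed at 0. The comparison of the plasmid groups is limited by 4 libraries a group, of which 1 stands apart in SIRT5F101L, and by the length slope.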

Other observations

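Of the 5 pseudogenes named for mitochondrial ribosomal proteins, which the rule left out, Mrpl48-ps alone was measurable. It stood at 3.54 ± 0.607, 2.96 ± 1.07 and 2.08 ± 0.731 CPM in Control, WT and SIRT5F101L (SD, n = 4), and its log2 fold change was -0.74 ± 0.28 in SIRT5F101L against Control (edgeR adjusted p = 0.0286) and -0.26 ± 0.27 in WT (adjusted p = 0.434). Its parent gene Mrpl48 was called lower in both, at -0.38 in SIRT5F101L and -0.24 in WT. A near-identical stretch in Mrpl48-ps covers 14.8% of the Mrpl48 transcript, so a part of their reads may be shared. Mrps36-ps1 and Mrpl23-ps1 had 0 to 6 counts in any library, and Mrps36-ps2 and Mrps36-ps3 were listed at 0 in all 12.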
